A study of Mus musculus with 3 samples.

Results

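IgG2b and IgG2c plasma cells that were not dividing made up 788 of the 40130 barcodes in 3 single-cell libraries of mouse spleen B cells. They were chosen from raw UMI counts (unique molecular identifiers, each counted as one captured RNA molecule). A barcode first needed at least 500 genes, under 10% mitochondrial UMIs and a clear hashtag, which left 35102 cells. A hashtag, the antibody label that records a cell's treatment, was clear at 64 or more UMIs and at least 4 times the other hashtag plus 1. Plasma cells then needed at least 5 Edem1 UMIs and 20 Mzb1 UMIs, and non-dividing ones fewer than 3 UMIs of Mki67 and Top2a together. Of the 1873 non-dividing plasma cells, the members were those in which Ighg2b and Ighg2c held at least 80% of all IgM, IgG and IgA heavy-chain constant-region UMIs.

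The mice were wild-type females of BXD2, a recombinant inbred strain derived from C57BL/6J and DBA/2J that develops autoantibodies with age; the labels used here give no age. Each R848 mouse received 25 µg of an anti-IL-4 antibody (BVD4–1D11) as control, and each IL-4+R848 mouse received 5 µg of IL-4 in a long-acting complex with the same 25 µg of antibody. R848, which activates the endosomal receptor TLR7, followed 2 hours later in all mice (40 µg for each 20 g the animal weighed), the pair of injections was repeated after 2 days, and spleens were taken 2 days after that, from 3 mice per treatment. B cells were enriched by negative selection, so there was no gate for plasma cells, and every library (sets 1, 2 and 3) mixed both treatments. The labels do not say whether each treatment in a set was a single mouse, so the spread between sets may be partly technical. A p-value for treatment measures that spread. A p-value between isotype classes or subclasses measures how their difference varied over pairs of sums. Those pairs were treated as independent, although they came from 3 libraries.

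Plasma cells are the terminal stage of B cell differentiation and devote most of their protein synthesis to one antibody. Class switching replaces the IgM constant region with a downstream one, and in mice interferon-gamma favours switching to IgG2c (IgG2a in other haplotypes), TGF-beta to IgG2b, and IL-4 to IgG1 and IgE. Antibody secretion requires an enlarged endoplasmic reticulum (ER), with its chaperones, glycosylation enzymes and disposal system for misfolded chains.

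The subclass call rested on UMI counts per gene. The libraries were read from the 5′ end of the transcript, where reads can run from the variable region into the first constant exon, CH1. Which exon the counted reads fell in was not examined. The first 150 of the 291 CH1 bases follow for the 4 IgG genes, all on the minus strand of chromosome 12 in GRCm38 (the C57BL/6J reference, not the BXD2 genome). Capitals mark where Ighg2b, Ighg1 or Ighg3 differs from Ighg2c and, in Ighg2c, where Ighg2b differs from it.
Ighg2c (chr12:113288783-113288932): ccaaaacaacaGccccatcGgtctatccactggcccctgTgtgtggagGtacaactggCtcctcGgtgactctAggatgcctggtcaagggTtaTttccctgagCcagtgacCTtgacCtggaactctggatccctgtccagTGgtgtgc
Ighg2b (chr12:113307784-113307933): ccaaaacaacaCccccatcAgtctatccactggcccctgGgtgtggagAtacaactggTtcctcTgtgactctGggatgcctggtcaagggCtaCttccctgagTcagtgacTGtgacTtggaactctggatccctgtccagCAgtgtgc
Ighg1 (chr12:113330374-113330523): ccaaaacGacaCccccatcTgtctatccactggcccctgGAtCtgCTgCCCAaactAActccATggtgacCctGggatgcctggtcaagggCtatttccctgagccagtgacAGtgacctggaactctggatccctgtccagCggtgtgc
Ighg3 (chr12:113361083-113361232): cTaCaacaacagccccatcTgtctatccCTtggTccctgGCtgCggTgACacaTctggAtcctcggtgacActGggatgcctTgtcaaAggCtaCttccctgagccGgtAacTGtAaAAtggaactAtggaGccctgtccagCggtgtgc
In this window Ighg2b differed from Ighg2c at 15 of 150 positions, Ighg1 at 22 and Ighg3 at 30, and the longest run shared by Ighg2b and Ighg2c was 23 bases. Over the whole CH1 exon Ighg2b was 87.6% identical to Ighg2c, Ighg1 88.0% and Ighg3 78.4%, so Ighg1 was as close as Ighg2b there. The genes are close enough that some reads could be assigned to the wrong one, and how such reads were counted is not given in the sources used here.

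Nearly every member carried one subclass. With 80% of the Ighg2b and Ighg2c UMIs as the limit, 511 members were IgG2c cells, 272 were IgG2b cells and 5 were between. The labels do not give the heavy-chain haplotype of BXD2, so cells counted on the reference gene Ighg2c may carry IgG2a. The median IgG2c cell held 485 Ighg2c UMIs and 0 Ighg2b UMIs, and the median IgG2b cell held 383.5 Ighg2b and 1 Ighg2c. The histogram of the Ighg2c share has almost all cells in its outermost bins, 501 of them above 95% and 256 below 5%.

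**Figure D1:**
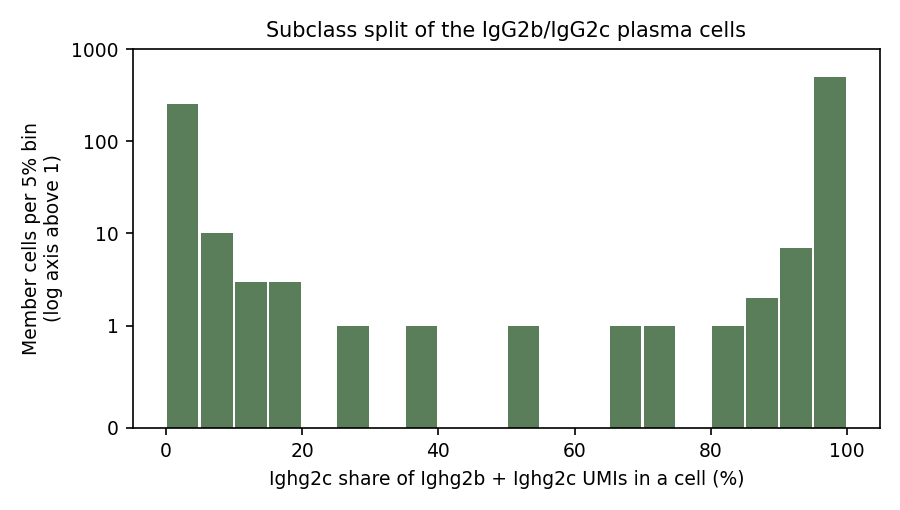
Number of member cells (vertical axis, log above 1) in 5% bins of the Ighg2c share of Ighg2b plus Ighg2c UMIs per cell (horizontal axis, percent), all sets together. The outermost bins hold 256 and 501 cells, and no other bin holds more than 10.

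The limits of the choice differed in how many cells lay near them. The IgG2 share was 80 to 90% in 28 members and 70 to 80% in 15 plasma cells outside, against 95% or more in 697 members. Edem1, whose product delivers misfolded glycoproteins to degradation, stood at 5 or 6 UMIs in 34 members, and 32 cells with enough Mzb1 stood just outside at 3 or 4. Mzb1, an ER co-chaperone for antibody assembly, stood at 20 to 24 UMIs in 16 members and at 15 to 19 in 6 cells with enough Edem1. Mki67 and Top2a, genes of dividing cells, summed to 0 UMIs in 454 members, 1 in 236 and 2 in 98, and 58 IgG2b or IgG2c cells just beyond had 3 or 4. Doubling both hashtag limits lowered the members' mean share of assigned cells from 2.78 to 1.65% under R848 and from 1.37 to 1.17% under IL-4+R848.

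The label was checked against markers, most of which the rule did not use. Jchain, which links IgM pentamers and IgA dimers and is abundant in plasma cells, had a median of 411 UMIs per member (quartiles 260 and 586) and 0 outside the plasma cell gate. All 12 plasma cell markers found in the files were detected, with summed levels of 30599 to 36190 CPM (UMIs of a gene scaled to one common total for every sum of cells) over the 6 sums of set and treatment, against 1503 to 2136 CPM in cells outside the gate. This sum is not 12 separate checks, because a few abundant genes can carry most of it. The 10 follicular B cell markers summed to 170 to 321 CPM in members and 2818 to 3103 CPM outside. Markers of T cells summed to at most 7.78 CPM, of NK cells to 7.28, of neutrophils to 0.766, of erythroid cells to 1.26 and of platelets to 1.53. The 8 plasmacytoid dendritic cell markers summed to 430 to 498 CPM in members and 334 to 374 CPM outside the gate, of which Bst2 alone gave 314 to 366 CPM in members. All 8 had UMIs in R848 members, and Siglech, Klk1 and Ccr9 were at 0 in IL-4+R848 members; the part of such cells was not tested.

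Members had more UMIs and genes than cells outside the plasma cell gate, and a larger share of immunoglobulin RNA. The median member had 19737.5 UMIs and 2510.5 genes, against 5250 UMIs and 1725 genes outside the gate. The gate asked for raw UMIs of Edem1 and Mzb1, which cells with few UMIs reach less easily. The difference in UMIs and genes is therefore partly set by the choice of cells. Immunoglobulin genes of all kinds took a median of 44.1 to 50% of a member's UMIs in the 6 sums, and 1.66 to 1.81% in the other assigned cells. The range among members was wide: immunoglobulin share ran from 3.53 to 81.0% with quartiles at 37.0 and 60.4%, and heavy-chain constant UMIs from 2 to 2695 with quartiles at 300 and 692. Only 2 members had fewer than 20 heavy-chain constant UMIs.

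Free antibody RNA was measured in NK cells. In these cells, which make no antibody, 4.08, 25.0 and 4.69% of cells had an Ighg2c UMI in sets 1 to 3, from 49, 16 and 64 cells, with at most 0.313 UMIs per cell on average. Other antibody RNAs were higher there: 55.1, 50 and 40.6% of NK cells had an Ighm UMI, with 0.688 to 1.44 UMIs per cell, and 24.5, 50 and 9.38% had a Jchain UMI, with 0.109 to 0.812 UMIs per cell. Libraries shared 230, 289 and 219 barcodes in pairs, and no barcode belonged to a member in both libraries of a pair. Whether a member's barcode was also that of a non-member cell in another library was not counted. No doublet caller was run; barcodes with both hashtags had been removed by the hashtag rule, and pairs of cells from one treatment remain. The 3 libraries held 96866964 to 107244246 gene UMIs in 11389 to 14519 barcodes.

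The first comparison asked whether IL-4 given with R848 changed the number of these cells. In R848 mice members were 1.71% of assigned cells in set 1, 2.07% in set 2 and 4.56% in set 3. In IL-4+R848 mice they were 2.22, 0.699 and 1.18%. The IL-4 value was lower in sets 2 and 3 and higher in set 1, and the groups overlapped. The means were 2.78% ± 1.55 (SD, n = 3) and 1.37% ± 0.780 (SD, n = 3), and an exact two-sided permutation test over the sets, unpaired, gave p = 0.3. With 3 sets against 3 the smallest p such a test can give is 0.1, so no share could have passed 0.05. The difference of -1.41 percentage points was -0.429 without set 3, -2.37 without set 1 and -0.486 with the stricter hashtag limit. With cells thinned to 10000 UMIs, which kept 6669 cells and left out shallower ones, the means were 12.4 and 7.43%, a difference of -4.99 points.

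Shares within the plasma cells moved no more clearly. Members were 28.4, 38.2 and 56.9% of non-dividing plasma cells in R848 sets 1 to 3, and 41.5, 31.1 and 38.5% in IL-4+R848 sets (41.2% ± 14.5 and 37.0% ± 5.35, SD, n = 3, exact permutation p = 0.9). Leaving out set 3 turned this difference from -4.17 to 2.96 percentage points, leaving out set 1 made it -12.8, and the stricter hashtag limit made it -0.391. Dividing cells, 292 in all beside the 788 members, were 26.9, 31.6 and 22.9% of IgG2b and IgG2c plasma cells under R848 and 30.1, 30.4 and 31.8% under IL-4+R848 (27.1% ± 4.33 and 30.8% ± 0.926, SD, n = 3, exact permutation p = 0.3). The values overlapped, and the R848 sets spread more widely than the IL-4+R848 sets.

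IgG2c cells outnumbered IgG2b cells in all 6 sums. They were 59.2, 68.4 and 66.6% of subclass-assigned members under R848 and 60.2, 75 and 68.3% under IL-4+R848. Each IL-4 value was above the R848 value of its own set, but the groups overlapped, with means of 64.7% ± 4.88 and 67.8% ± 7.42 (SD, n = 3, exact permutation p = 0.5). Set 2 had the smallest IL-4+R848 sum, 32 members, so its 75% rests on 24 IgG2c cells.

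**Figure D2:**
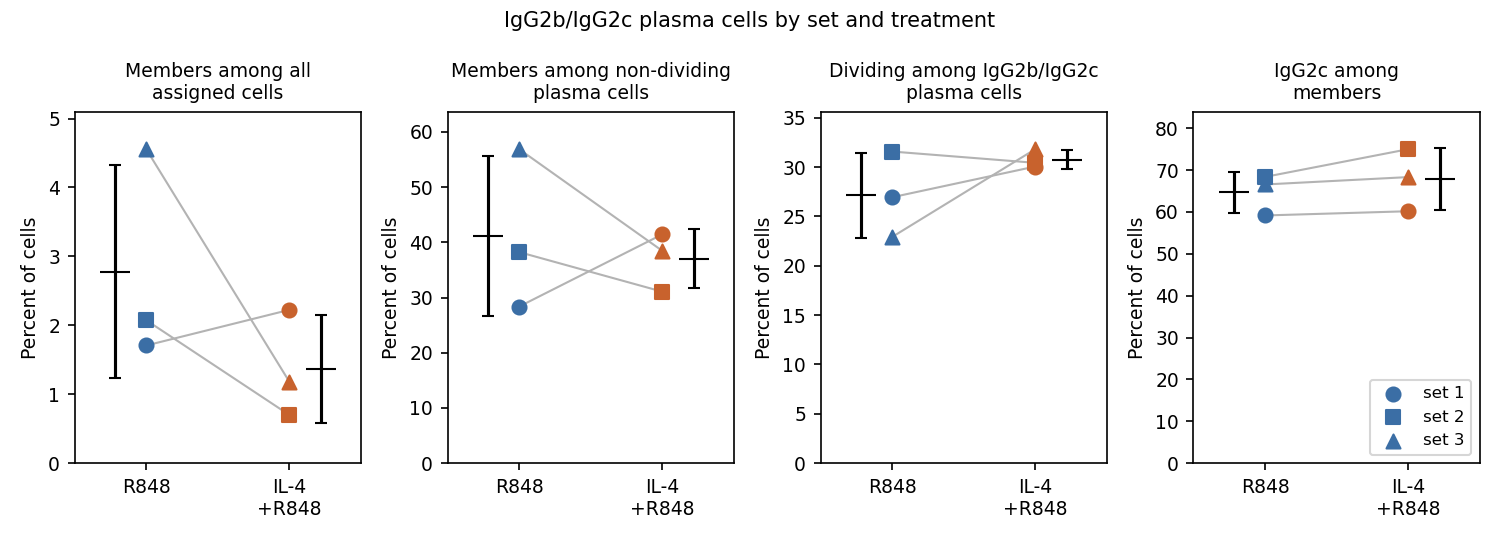
Percent of cells (vertical axes) in R848 and IL-4+R848 cells of the 3 sets, for members among assigned cells, members among non-dividing plasma cells, dividing cells among IgG2b and IgG2c plasma cells, and IgG2c cells among members. Lines join the treatments of a set and bars are mean ± SD (n = 3). The treatments overlap in every panel, and set 3 under R848 stands highest in the first 2 panels.

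The members' antibodies were diverse. Each cell was given the heavy and light variable (V) gene with the most UMIs, and the leading heavy V gene held at least 90% of heavy V UMIs in 761 of 788 cells. The leading light V gene did so in 648, so light-chain calls, and the pairs that rest on them, were less certain. The members used 84 heavy and 82 light V genes in 606 different pairs, of which 497 occurred in 1 cell. Junction sequences were not analysed here, so a shared pair does not establish a shared clone. V genes of one family are near-identical, and some calls may be split between copies.

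The heavy V genes used most were Ighv1-26 in 45 cells, Ighv3-6 in 30, Ighv1-72 in 27 and Ighv9-2 and Ighv9-3 in 24 each. Ighv1-26 was also carried by 47 of 699 IgM plasma cells, whereas Ighv9-2 was carried by 0 of 699, which allows a share of up to 0.429%. The Ighv9-2 cells came unevenly from the samples, with 17 in R848 set 2, 6 in R848 set 1, 1 in R848 set 3 and 0 in the 3 IL-4+R848 sums. Their leading pair, Ighv9-2 with Igkv2-137, was the most frequent of all, found in 11 cells of R848 set 2 and 5 of R848 set 1, and 14 of these 16 were IgG2b cells.

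Among light chains the leading genes were Igkv3-4 in 37 cells, Igkv10-96 in 34, Igkv2-137 in 32, Igkv6-23 in 27 and Igkv1-117 and Igkv6-15 in 26 each. Lambda chains were used by 37 members, 4.70%. Igkv2-137 also paired with Ighv1-39 in 8 cells, all of IL-4+R848 set 1. Cells in pairs repeated within a sum were 26.2, 19.7 and 22.7% of members in R848 sets 1 to 3 and 19.3, 0 and 10.0% in IL-4+R848 sets, whose sizes differ (114, 32 and 60 cells).

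The comparison with IgM plasma cells asked what else differed between switched and unswitched cells of the same gate, set and treatment. Counts were summed over the cells of each class, giving 6 pairs of sums with at least 32 cells each, and tested with edgeR's quasi-likelihood test with set and treatment as a block. IgM plasma cells had lower median UMIs, 13014.5 to 16852 against 18673 to 26281, and a lower immunoglobulin share, 35.7 to 41.0%. Of 7205 genes tested, 663 were higher in members and 650 lower with p-values adjusted by Benjamini and Hochberg (BH) and a threshold of 0.05, which is 9.20% and 9.02% (18.2% together). Outside immunoglobulin genes 91 of these were at least 2-fold higher and 169 at least 2-fold lower. The count depended on the number of sets: without set 1 it was 573 in all, without set 2 it was 703 and without set 3 it was 737, against 1313 with all sets. Levels below are CPM scaled by edgeR's TMM factors, and every log2 difference is members minus IgM cells. The counts given for gene lists stand against these shares of all genes, 9.20% higher and 9.02% lower.

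Slpi, which encodes a secreted inhibitor of serine proteases, had the largest rise among genes of at least 20 CPM. It ranged from 9391 to 12292 CPM in member sums (median 11375) and from 382 to 1784 CPM in IgM sums (median 531). The groups did not overlap, and the log2 difference was 4.09 ± 0.35 (SE, adjusted p = 0.000194, edgeR). At least 10 Slpi UMIs were found in 61.4 to 75% of members in the 6 sums.

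Prg2, the major basic protein best known from eosinophil granules, lay between 174 and 754 CPM in member sums and between 19.1 and 132 CPM in IgM sums. Its log2 difference was 3.11 ± 0.52 (SE, edgeR adjusted p = 0.00448), and without set 2 the adjusted p was 0.051. The membrane proteins Tmem176a and Tmem176b had medians of 106 and 141 CPM against 14.5 and 15.3 CPM. Gng3, a G protein gamma subunit, had a median of 23.1 against 2.83 CPM, but its groups overlapped because one member sum stood at 4.21 CPM.

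Among called genes outside immunoglobulin genes with at least 20 CPM in the higher group, the 5 largest falls were as follows. Pinlyp, a Ly6-domain phospholipase inhibitor, had a median of 0.922 CPM in members and 19.5 CPM in IgM cells. Myof, the membrane repair protein myoferlin, had 1.06 against 22.1 CPM, and the sialyltransferase St3gal6 had 5.74 against 62.5 CPM. The lipid scavenger receptor Cd36 had 9.84 against 71.9 CPM, with a log2 difference of -2.85 ± 0.20 (SE, edgeR adjusted p = 8.14e-05). E330020D12Rik, a gene with no name beyond its clone, had 4.16 against 25.9 CPM. In these 5 genes all 6 pairs moved down and the groups did not overlap.

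**Figure D3:**
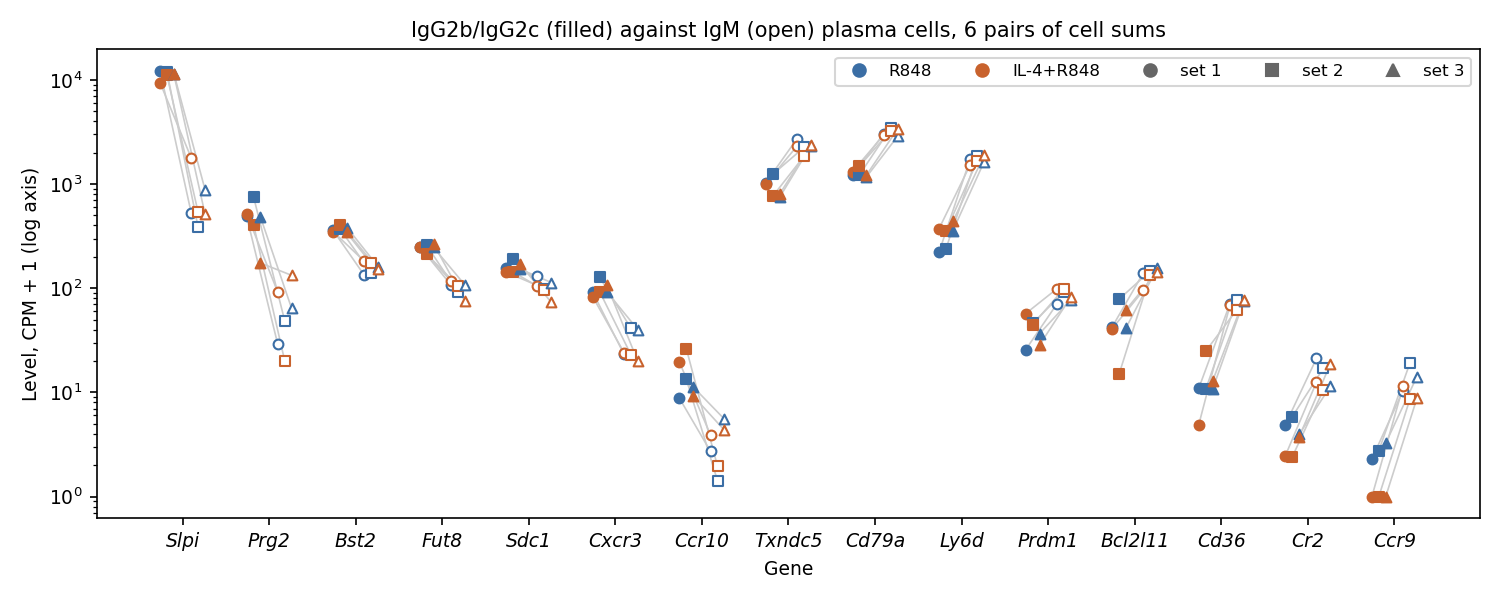
Level of 15 genes (vertical axis, CPM + 1, log scale) in sums of IgG2b/IgG2c (filled) and IgM (open) plasma cells, with lines joining the 2 sums of one set and treatment. The first 7 genes stand higher in the members of every pair and the other 8 stand lower, with Slpi the most abundant.

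Migration genes moved in both directions. Of 18 tested trafficking and adhesion genes, 7 rose and 7 fell, with a median log2 difference of 0.00 against -0.01 over all 7205 genes. Cxcr3, the receptor for interferon-induced chemokines, ranged from 81.4 to 126 CPM in members and from 18.8 to 40.2 CPM in IgM cells, with a log2 difference of 1.77 ± 0.13 (SE, edgeR adjusted p = 9.83e-05). Ccr10, a homing receptor of antibody-secreting cells for epithelial sites, had medians of 11.3 and 2.30 CPM without overlap. Ccr9, the receptor that guides cells to the small intestine, went the other way, with 0 to 2.26 CPM in members and 7.65 to 18.2 CPM in IgM cells. Ly6d, a surface protein of the B lineage, fell from a median of 1697 to 357 CPM. Cxcr4, which holds plasma cells near stromal CXCL12, rose by 0.72 ± 0.15 on the log2 scale (SE, edgeR adjusted p = 0.0136), with adjusted p = 0.13 without set 1 and 0.11 without set 3.

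Survival genes fell more often than they rose, with 4 higher and 8 lower of 19 tested and a median log2 difference of -0.17. Tnfrsf17, the receptor BCMA for the survival factor APRIL, ranged from 7.02 to 15.4 CPM in members and from 23.7 to 46.7 CPM in IgM cells. Bcl2, which blocks apoptosis, had medians of 4.59 and 17.5 CPM, and Bcl2l11, its pro-apoptotic antagonist BIM, 41.1 and 141 CPM. Both were lower in members in all 6 pairs, by 1.68 ± 0.20 and 1.56 ± 0.20 on the log2 scale (SE, edgeR adjusted p = 0.000891 and 0.0013). Lag3, an inhibitory receptor, had 1.92 against 14.7 CPM. Sdc1, the plasma cell surface proteoglycan CD138, was among those that rose, with 141 to 189 against 72.1 to 130 CPM and an adjusted p of 0.00952 by edgeR, which became 0.084 without set 2.

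Of 13 tested transcription factors and cofactors of plasma cells, 6 fell and 0 rose, with a median log2 difference of -0.28. Prdm1, the repressor Blimp-1 that drives plasma cell differentiation, ranged from 24.7 to 56.0 CPM in members and from 69.4 to 97.6 CPM in IgM cells. The groups did not overlap, and the log2 difference was -1.14 ± 0.09 (SE, edgeR adjusted p = 0.000164). Ikzf3 (Aiolos) and Pou2af1, the coactivator OCA-B, fell by 0.80 and 0.68 on the log2 scale. Irf4 did not pass, at 122 against 163 CPM (median, edgeR adjusted p = 0.0559), nor did Xbp1, the driver of the secretory programme, at 2077 against 1630 CPM (median, edgeR adjusted p = 0.0735). With immunoglobulin genes removed before fitting both passed by edgeR, Irf4 downward (adjusted p = 0.0020, and 0.0020 to 0.278 over 12 alternatives) and Xbp1 upward (5.1e-05, and 3.9e-05 to 0.583 over 12 alternatives). Tbx21, which encodes T-bet, the factor linked to IgG2c switching, was too sparse to test, with a UMI in 3.42 to 7.02% of members.

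Some genes of earlier B cells were lower in members. In the list of B cell identity and antigen presentation 4 of 19 tested fell and 0 rose. Cd79a, the signalling chain of the B cell receptor, had 1168 to 1488 CPM in members and 2865 to 3434 CPM in IgM cells. Cr2, which encodes the complement receptor CD21, had medians of 2.85 and 13.8 CPM. Bach2, a repressor of plasma cell fate, had 9.26 and 17.9 CPM and passed with all sets (edgeR adjusted p = 0.00714) but not without set 1 (0.076). Pax5 did not pass (edgeR adjusted p = 0.0821). Of the 10 follicular B cell markers, which share genes with this list, 5 fell and 0 rose, with a median log2 difference of -0.80, and the part of RNA from such cells was not tested.

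The secretory apparatus gave a mixed picture. Of 12 genes of ER-associated degradation 5 rose and 0 fell, but Edem1 is one of the 5 and chose the cells, and the median was 0.31. Edem2, a mannosidase that marks glycoproteins for disposal, rose from a median of 436 CPM in IgM cells to 723 CPM in members, Ube2j1, its ubiquitin-conjugating enzyme, from 154 to 226 CPM, and Erlec1, an ER lectin, from 162 to 216 CPM. Of 25 genes of the unfolded protein response and ER folding 5 rose and 3 fell. The prolyl isomerase Fkbp11 rose from 357 to 570 CPM and the chaperone gene Creld2 from 924 to 1558 CPM, whereas Txndc5, a disulfide isomerase, fell from 2327 to 907 CPM. The Creld2 call was lost without set 1 (edgeR adjusted p = 0.12) and without set 2 (0.091).

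Transport and glycosylation followed gene by gene, against 9.20% of all genes called higher and 9.02% called lower. In ER-to-Golgi transport 3 of 19 rose and 1 fell: Lman1, a cargo receptor for glycoproteins, had medians of 578 against 337 CPM, while the Golgi tether Golgb1 had 67.1 against 91.0. The coat GTPase Sar1b rose by 0.32 on the log2 scale and was lost without each set in turn (edgeR adjusted p = 0.053 to 0.12). In protein translocation 2 of 20 rose, near the share of all genes. They were the receptor subunit Srprb by 0.51 and Tram2 by 0.34, the latter lost without set 1 (edgeR adjusted p = 0.20) and set 2 (0.091). Of 16 antibody glycosylation genes 1 rose and 4 fell. The riser was Fut8, which adds the core fucose of antibody glycans, at 212 to 266 CPM in members and 74.3 to 117 CPM in IgM cells (log2 difference 1.31 ± 0.12, SE, edgeR adjusted p = 0.000214). The mannosidase gene Man1a fell by 0.62, and St6gal1, which adds terminal sialic acid, by 0.51 with a call that was lost without set 1 (edgeR adjusted p = 0.11) and set 3 (0.18).

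Interferon response genes moved in both directions. Of 15 interferon-gamma response genes 6 rose and 1 fell, with a median log2 difference of 0.39. Igtp, an interferon-inducible GTPase, ranged from 47.7 to 80.4 CPM in members and from 13.4 to 28.3 CPM in IgM cells, and Psmb8, an immunoproteasome subunit, from 520 to 667 against 298 to 382 CPM. Gbp2, a guanylate-binding protein, rose by 2.06 ± 0.30 on the log2 scale (SE, edgeR adjusted p = 0.00233) though its groups overlapped, and Irf8, a factor of the B and myeloid lineages, fell from a median of 119 to 54.1 CPM. Of 13 type I interferon genes 4 rose and 6 fell, with a median of -0.32; the difference between these lists was not tested. Isg15, a ubiquitin-like modifier, fell from 76.7 to 20.2 CPM and Phf11b from 24.6 to 13.3 CPM, while Bst2, the virus tether tetherin, rose from 155 to 363 CPM.

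Among energy and growth genes a minority passed, with small differences. Of 18 oxidative phosphorylation genes 7 rose and 0 fell, with a median of 0.21: the respiratory chain genes Ndufv1 and Sdhb rose by 0.51 and 0.43 on the log2 scale, and Uqcrq by 0.43. Of 12 glycolysis genes 3 rose and 0 fell, the enzymes Tpi1, Pgam1 and Pkm by 0.58, 0.45 and 0.30. Of 17 Myc target and ribosome biogenesis genes 6 rose and 0 fell, led by the nucleolar protein Mybbp1a at 0.70, the spermidine synthase Srm at 0.56 and Nolc1 at 0.40. Of 19 replication and mitosis genes only the histone variant H2afz rose, by 0.44, and none fell. Of these 10 genes Ndufv1, Tpi1 and Pgam1 held when each set was left out, and the other 7 were lost in 1 or more of those fits (edgeR adjusted p = 0.052 to 0.17 there).

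**Figure D4:**
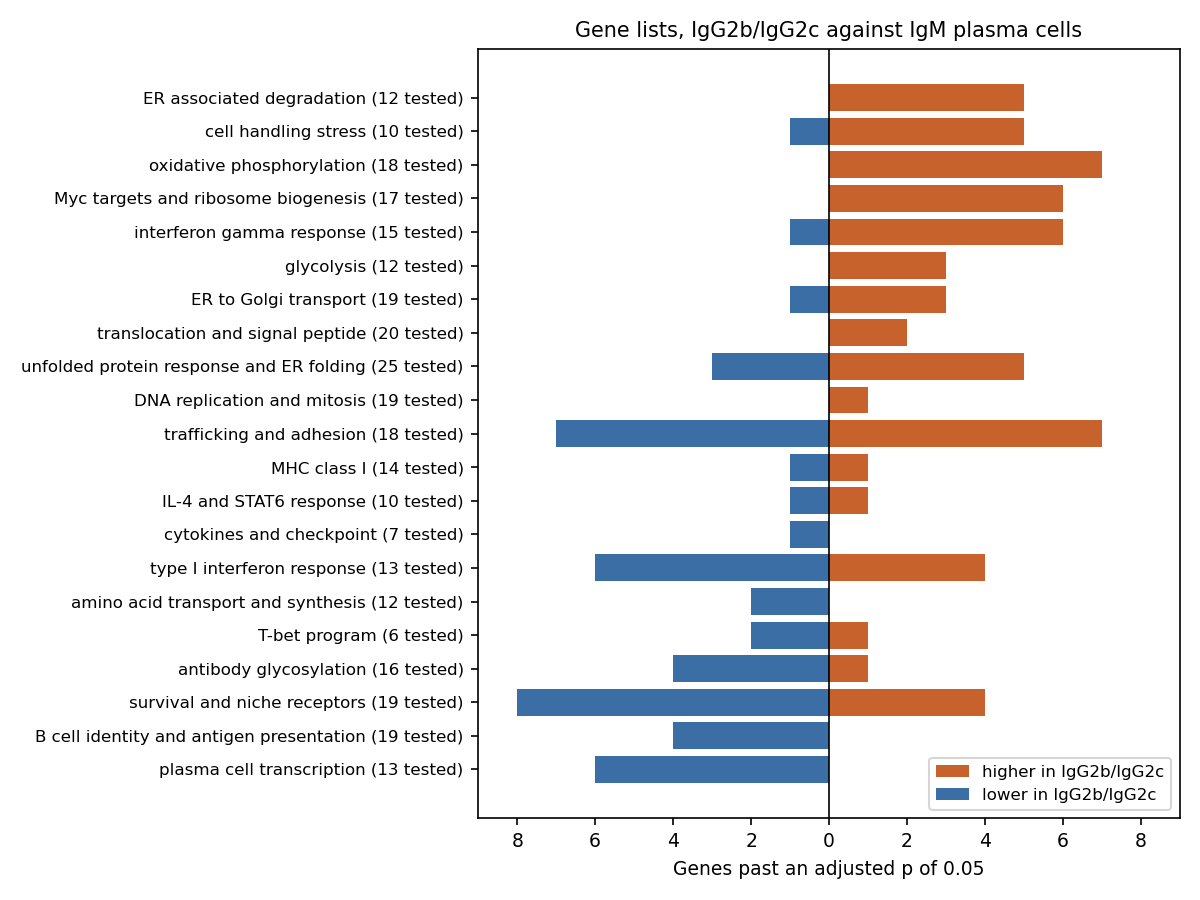
Number of genes past a BH-adjusted p of 0.05 (edgeR, horizontal axis) that were higher or lower in IgG2b/IgG2c than in IgM plasma cells, for 21 gene lists with the number tested in each (vertical axis). Oxidative phosphorylation has 7 higher and none lower, plasma cell transcription none higher and 6 lower, and trafficking 7 each way, against 9.20% higher and 9.02% lower of all genes.

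Smaller lists gave few calls, some of them near the 9.20% higher and 9.02% lower of all genes. Of 6 tested T-bet programme genes 1 rose, Cxcr3, and 2 fell, among them the Fc receptor-like gene Fcrl5 from a median of 14.7 to 2.40 CPM. Of 10 IL-4 and STAT6 response genes Socs2, a cytokine signalling inhibitor, rose from 3.75 to 7.95 CPM (lost without set 1, adjusted p = 0.062, and set 2, 0.052) and Il2rg, the common cytokine receptor chain, fell from 106 to 50.8 CPM. Of 14 MHC class I genes Psmb8 rose and H2-Q4 fell, and of 12 amino acid genes Chac1 and Slc1a5 fell; both were lost without set 1 (edgeR adjusted p = 0.060 and 0.054) and set 3 (0.073 and 0.069), and Slc1a5 also without set 2 (0.075). Nfil3 and Il4i1 did not pass (edgeR adjusted p = 0.300 and 0.585).

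Early-response genes moved with the classes too. Of 10 tested genes of the list for cell handling stress 5 rose and 1 fell: Dusp1 stood at 112 to 326 CPM in members against 38.7 to 108 CPM (adjusted p = 0.051 without set 3), Fos at 835 to 2069 against 554 to 1198 CPM (lost without each set, adjusted p = 0.063 to 0.19), and Egr1 fell from a median of 174 to 70.7 CPM (lost without set 1, adjusted p = 0.053, and set 3, 0.054, all by edgeR). Their part in the other differences was not tested.

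Of the 9 monocyte and macrophage markers 2 could be tested, and both were higher in members. C1qb, a complement subunit, had a median of 11.0 CPM in members and 1.71 in IgM cells, and Cd68 12 against 4.35 CPM. The C1qb call was lost without set 1 (edgeR adjusted p = 0.087) and set 2 (0.078). The whole list summed to 24.9 to 40.3 CPM in R848 members and 18.4 to 22.7 CPM in IL-4+R848 members, with Cd14 at 0 in every sum and Csf1r and C1qc at 0 in the IL-4+R848 sums. C1qb was present in 5.26 to 21.9% of members, with at most 13 UMIs in a cell. The part of such RNA in the members' other differences was not tested.

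Of the light-chain and J-chain genes, Igkc rose and Jchain did not pass. Igkc, the kappa constant region, had a median of 24711 CPM in members and 14116 CPM in IgM cells, with adjusted p = 0.00499 by edgeR and 0.08 without set 1. Jchain was at 23443 against 17475 CPM (median, edgeR adjusted p = 0.0582), although all 6 pairs were higher in members. With immunoglobulin genes removed its adjusted p was 1.8e-05 by edgeR (6.58e-06 to 0.620 over 12 alternatives).

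Surface antibody tags were counted in the same cells and were not used to choose them. The median CD138 tag was 325, 254 and 224 UMIs per member in R848 sets 1 to 3 and 290.5, 266 and 216 in IL-4+R848 sets. IgM plasma cells had 126.5 to 217, and cells outside the gate 4 to 8. The IgM tag had medians of 3 to 4 UMIs in members and 36.5 to 65 in IgM plasma cells, and the CD21 tag 9 to 31 and 47.5 to 112. CD138 was higher and IgM and CD21 lower in members in all 6 pairs, as were the RNAs Sdc1 and Cr2. The classes were drawn by heavy-chain constant RNA, Ighm included, so the lower IgM tag is no separate observation. These tag differences were not tested.

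Against IgG1 and IgG3 plasma cells the members differed in few genes. In 5 pairs with IgG1 cells 6 genes were higher and 2 lower of 5532 tested (0.108 and 0.0362%, together 0.145%, edgeR adjusted p under 0.05), and 379 had an unadjusted p under 0.05 (6.85%). Of the 8 calls 3 were V genes. Outside immunoglobulin genes the calls were Fcer1g, the Fc receptor gamma chain, at 54.5, 93.2 and 121 CPM (lowest, median, highest) in members against 19.7, 26.5 and 36.7 CPM, and Tmem176b at 90.6, 131 and 204 against 167, 211 and 344 CPM. Fcer1g was higher in all 5 pairs without overlap (log2 difference 1.80 ± 0.15, SE, edgeR adjusted p = 0.00424), but not past the threshold without set 1 (0.06). Tmem176b was lower in all 5 pairs (edgeR adjusted p = 0.0359) and lost its call without any 1 set (0.055 to 0.94). Slpi, named here after its values were seen, was at a median of 10366 CPM in members and 19350 CPM in IgG1 cells. Although the 5 pairs did not overlap, Slpi did not pass (edgeR adjusted p = 0.651). With immunoglobulin genes removed 6 genes were higher and 10 lower, and Slpi passed (edgeR adjusted p = 0.0002, and 3.7e-06 to 0.965 over 9 alternatives, 2 of them under 0.05).

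In 4 pairs with IgG3 cells, of at least 11 cells each, 34 genes were higher and 1 lower of 5900 (0.576 and 0.0169%, together 0.593%, edgeR), 31 of them V genes, and 304 had an unadjusted p under 0.05 (5.15%). The single call outside immunoglobulin genes was Scimp, an adaptor for MHC class II and Toll-like receptor signalling, at 43.2 to 46.3 CPM against 11.8 to 17.7 CPM (adjusted p = 0.0244). It did not pass without any 1 set (adjusted p = 0.063 to 0.20, edgeR) or with immunoglobulin genes removed, when 0 genes were called, 291 had an unadjusted p under 0.05 and DESeq2 on all genes called 75. Prg2 and Cxcr3 did not pass against IgG1 or IgG3 (edgeR adjusted p = 0.560 to 0.986), though Prg2 passed in 2 of 9 alternatives against IgG1 (lowest adjusted p = 0.0328) and in 1 of 9 against IgG3, without set 1 (0.0032). Whether the difference from IgM cells was larger than that from IgG1 or IgG3 cells was not tested, and the IgG1 and IgG3 sums were smaller.

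Between IgG2c and IgG2b members edgeR called no gene beyond the ones that define them. Of 5271 genes in 5 pairs, edgeR called Ighg2c as higher and Ighg2b as lower, each 0.0190% of those tested and 0.0379% together, and these chose the cells. No other gene had an adjusted p under 0.05, 272 had an unadjusted p under 0.05 (5.16%), and DESeq2 called 28 in all. Slpi, named here after its values were seen, stood at 11089 to 14606 CPM in IgG2c and 5253 to 9080 CPM in IgG2b sums, without overlap. Its log2 difference was 0.81 ± 0.28 (SE, edgeR adjusted p = 0.906). Slpi passed with immunoglobulin genes removed (edgeR adjusted p = 0.0038, and 4.27e-06 to 1.0 over 8 alternatives). Irf4, at 135 ± 32.3 and 107 ± 24.7 CPM (mean ± SD), was higher in IgG2c sums in 5 of 5 pairs but did not pass either (edgeR adjusted p = 0.906).

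The last comparison asked what IL-4 changed within the members. With edgeR and no block, 0 of 7380 genes (0%) had an adjusted p under 0.05, 359 had an unadjusted p under 0.05 (4.86%), and DESeq2 called 14 higher and 12 lower. With the set as a block 1 was higher, Rflnb, and 4 V genes were lower. With immunoglobulin genes removed before fitting, 11 genes were higher and 2 lower (0.181% of 7168, edgeR). Those 13 genes, named here after their values were seen, were all among the 26 of DESeq2, and none but Rflnb was past the threshold with the block and all genes.

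Rflnb, which encodes refilin B, a regulator of filamin and actin, was at 0.789, 0.80 and 0.942 CPM in R848 sets 1 to 3 and at 13.2, 24.5 and 26.7 CPM in IL-4+R848 sets. All IL-4 values lay above all R848 values. The log2 difference was 4.43 ± 0.44 (SE) with an adjusted p of 0.0794 by edgeR, and 15 alternatives gave adjusted p from 6.28e-12 to 0.543, of which 9 were under 0.05. Behind these levels were few molecules: 1.46 to 1.71% of members had an Rflnb UMI under R848 and 7.02, 12.5 and 23.3% under IL-4+R848 in sets 1 to 3.

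Il4i1, a secreted amino acid oxidase named for its induction by IL-4 in B cells, was at 9.07, 2.80 and 8.79 CPM under R848 and 23.8, 21.9 and 43.3 CPM under IL-4+R848. The groups did not overlap, with a log2 difference of 1.99 ± 0.39 (SE, edgeR adjusted p = 0.580; 1.17e-05 to 1.00 over the alternatives). Few molecules lay behind Il4i1 too, with 23, 7 and 56 UMIs in R848 sets 1 to 3 and 54, 17 and 52 in IL-4+R848 sets. The highest cells had 11, 3 and 19 UMIs under R848 and 20, 6 and 12 under IL-4+R848. H2-Oa, a chain of the MHC class II modulator H2-O, was at 19.7, 10.8 and 16.0 CPM and then 38.4, 51.6 and 58.3 CPM. Cd83, an activation marker that stabilises MHC class II, was at 16.2, 12.4 and 24 CPM and then 40.6, 49.0 and 49.2 CPM. Neither overlapped between the treatments, and their adjusted p by edgeR were 0.207 and 0.580 with all genes and 0.00135 and 0.0173 with immunoglobulin genes removed.

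H2-Aa, a class II chain, was at 726, 743 and 805 CPM and then 996, 1086 and 1230 CPM (edgeR adjusted p = 0.997). In the fit without immunoglobulin genes its log2 difference was 0.54 ± 0.10 (SE, edgeR adjusted p = 0.0331; 0.00156 to 1.00 over 15 alternatives). In that fit Dock10, Ifi30, Tmem123, Pkib, Dnajc7 and Snx29 were higher by 0.55 to 1.86 on the log2 scale. Gbp2, the interferon-induced gene that was higher in members than in IgM cells, was lower with IL-4, at 18.5, 21.6 and 27.0 CPM and then 10.6, 5.16 and 5.83 CPM, and Cited2, a transcriptional cofactor, was at 257, 326 and 293 and then 175, 207 and 167 CPM. None of the 13 overlapped between the treatments, but they were selected by a test on these same sums, so this is no separate support. How many of all genes did not overlap is not given here.

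**Figure D5:**
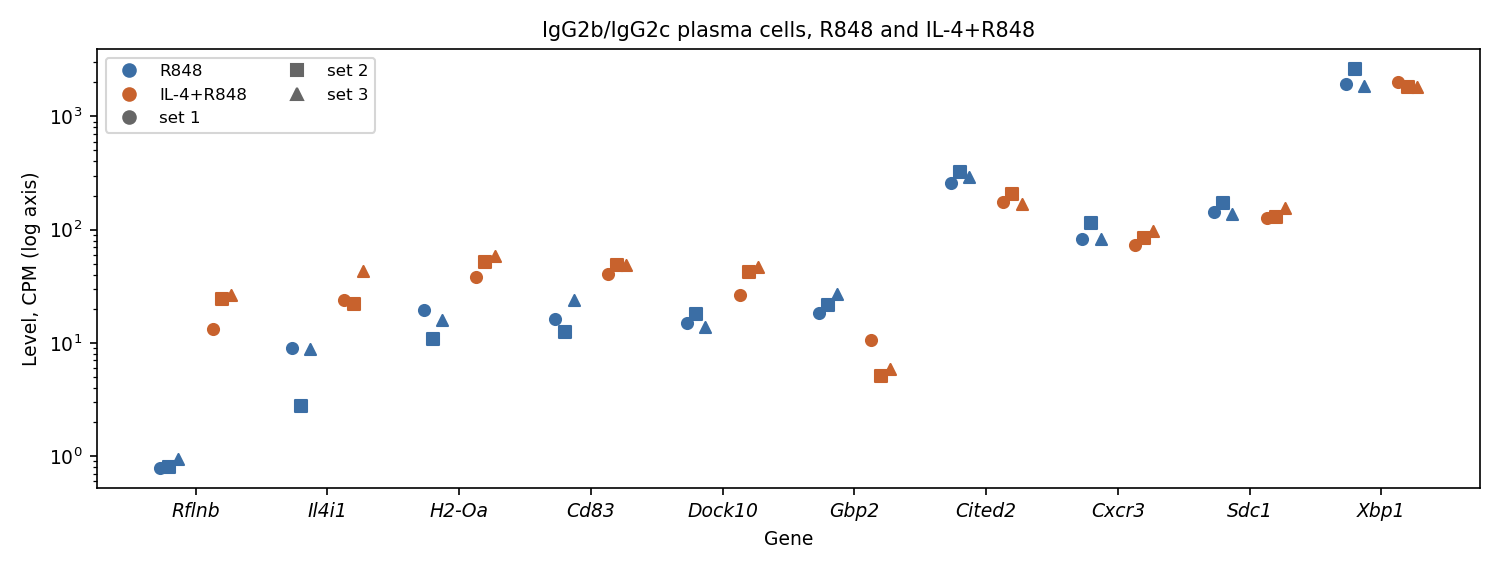
Level of 10 genes (vertical axis, CPM, log scale) in the members of R848 and IL-4+R848 cells of sets 1 to 3, each point a sum of cells. Rflnb, Il4i1, H2-Oa, Cd83 and Dock10 stand higher and Gbp2 and Cited2 lower with IL-4 in every set, while Cxcr3, Sdc1 and Xbp1 overlap.

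Follicular B cell markers were measured beside these genes. Their sum was 170 to 215 CPM in R848 members and 208 to 321 CPM in IL-4+R848 members (197 ± 23.6 and 271 ± 57.9 CPM, SD, n = 3), so the groups overlapped, and of the 9 tested none passed. The median log2 difference was 0.42 for these 9 genes and 0.54 for the 19 tested of the B cell identity and antigen presentation list, none of which passed either, against 0.00 over all genes. Pax5, one of them, was at 4.73, 1.60 and 4.24 CPM and then 5.74, 7.73 and 9.17 CPM (edgeR adjusted p = 0.997). The monocyte and macrophage markers were lower with IL-4, at 24.9 to 40.3 and then 18.4 to 22.7 CPM in sum, without overlap. The part of RNA from either cell type in the differences above was not tested.

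The members' own programme gave no call under IL-4. Of the 12 tested genes named in every comparison, edgeR's adjusted p ran from 0.580 to 1.00. Prdm1 was at 22.5, 40.8 and 32.2 CPM under R848 and 50.8, 40.0 and 25.0 CPM under IL-4+R848. Xbp1 was at 1919, 2611 and 1851 and then 2013, 1830 and 1804 CPM, and Cxcr3 at 82.0, 114 and 82.9 and then 73.7, 83.8 and 97.5 CPM. The treatments overlapped in all 3 genes. Jchain was at 21493, 25438 and 23276 and then 21120, 19944 and 20274 CPM, without overlap but not past the threshold (edgeR adjusted p = 1.00). Il4ra, the IL-4 receptor chain, was at 4.34, 1.60 and 2.20 and then 3.97, 5.16 and 9.17 CPM, and Nfil3, a factor induced by IL-4, at 7.49, 7.60 and 6.12 and then 8.39, 21.9 and 14.2 CPM, neither past the threshold (edgeR adjusted p = 0.997 for both).

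Whether IL-4 acted differently on members and IgM plasma cells was tested as an interaction over 12 sums. edgeR called 0 of 7957 genes, 314 had an unadjusted p under 0.05 (3.95%), and DESeq2 called 8. This fit had no block, so it did not use the pairing of the classes within a set and treatment. With the set as a block edgeR also called 0, and a block of set and treatment was not tried.

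The surface tags were compared by treatment as well. Of 12 tags, CD23 and CD273 had no overlap between the treatments. CD23, the low-affinity IgE receptor induced by IL-4, had medians of 23, 22 and 21 UMIs per member under R848 and 28, 26.5 and 39 under IL-4+R848 (exact permutation p = 0.1, the smallest possible, BH-adjusted 0.6 over the 12 tags). Outside the plasma cell gate the CD23 medians were 131, 149 and 114 and then 378.5, 349 and 263 UMIs, and the part of tag carried over from such cells was not tested. CD273 (PD-L2) had medians of 1, 1 and 1 and then 3, 3 and 2 UMIs (exact permutation p = 0.1, adjusted 0.6). CD21 was lower in each set with IL-4, at 31, 20 and 12 and then 13, 9 and 10 UMIs, with overlap (exact permutation p = 0.2, adjusted 0.8). CD138 medians differed by less than the spread between sets (exact permutation p = 0.9).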

How the data were processed

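Spleen B cells were sequenced as 3 single-cell 5′ libraries. The deposited values are raw UMI counts per gene and antibody tag, with no normalization recorded; the submitters' processing notes name mm10, Cell Ranger 6.0.1 and Seurat 4.1.3 without their roles. The members and gene lists were chosen with earlier results of these data known. Treatment was read from the names of the hashtag features. Counts were summed per set, treatment and isotype class (sums under 10 cells were left out with their partner). They were tested with edgeR 4.0.16, TMM scaling and its filter on low counts, with DESeq2 1.42.0 as an alternative. Shares and tag medians used exact permutation tests over sets, which did not use the pairing of the treatments within a set. Sets pair the treatments because both share a library. The correlation of same-set deviations was 0.156, 0.0284 and 0.252 over 1281 genes, and between different sets it ran from -0.255 to 0.132. Named genes were, per list, up to 3 called genes with the largest change in one direction in every set, the 5 largest rises and falls of at least 20 CPM outside immunoglobulin genes, and 13 genes named throughout where tested. Outside this rule, some genes were named after their values were seen. They were Slpi and Prg2 against IgG1 and IgG3, Slpi between subclasses, Apoe, and the IL-4 genes called with immunoglobulin genes removed. The models were also run on simulated counts without immunoglobulin genes and with the same spread set for every gene. Those runs do not cover the fits that keep immunoglobulin genes. Intervals and zero floors (3 counts) cover counting error only. The result for a single named gene is not reported here.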

Additional observations from a re-analysis of the deposited data

How the results depend on the processing

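The sums held 32 to 343 cells in the IL-4 and IgM comparisons and as few as 11 in the others, so sparse genes were beyond reach. Genes called against IgM numbered 573 to 737 with 1 set left out, 547 in R848 sums and 127 in IL-4+R848 sums, the last 2 chosen after the data were seen, against 1313. In the IL-4 comparison, against 0, the count was 26 with DESeq2, 4 with no filter or an isotype share of 60%, 13 with immunoglobulin genes removed, 5 with the replicate block, and 0 to 5 with 1 set left out (5 without set 1). Added after the data were seen, it was 5 without cells in repeated V gene pairs, 31 with immunoglobulin genes removed and the replicate block, and 18 with them removed and DESeq2. Against IgG1, DESeq2 gave 48, no filter 46, immunoglobulin genes removed 16, no replicate block 5 and 1 set left out 4 (set 3) to 12 (set 1), against 8. Against IgG3 these were 75, 131 and 0, with 36 to 69 (set 1) for 1 set left out, against 35. Between subclasses DESeq2 gave 28, no filter 41, immunoglobulin genes removed 4 and 1 set left out 2 to 5 (4 without set 1 and 5 without set 3), against 2. For the interaction DESeq2 gave 8 and 1 set left out 0 to 2 (set 2). The causes were not tested. The IgG2 share of plasma cells changed by -12.8 to 2.96 percentage points with 1 set left out, and the dividing share by -0.253 with dividing set at 1 UMI. Per 1000 tag UMIs the difference turned for CD93 (-0.214), IgD (-4.95), CD27 (-0.158) and CD80 (-3.63). With 1 set left out it ran from -0.250 to 0.500 UMIs for GL7, -21.3 to 2.00 for CD138, -1.25 to 0.500 for CD95, -2.25 to 1.75 for IgD and -0.250 to 1.25 for CD27, and 2 to 6 tags did not overlap. Uncalled log2 differences with IL-4 that changed sign with 1 set left out ran from -0.19 to 0.58 for Prdm1, -0.31 to 0.12 for Irf4, -0.29 to 0.016 for Xbp1, -0.27 to 0.014 for Sdc1 (0.15 with a stricter hashtag) and -0.33 to 0.042 for Cxcr3, and against IgM from -0.14 to 0.75 for Il4i1. Of 70 called genes named against IgM, 47 stayed past the threshold without each set.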

Other observations

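The rule that chose the members did not count Ighe, the IgE constant region, and 2 members carried large numbers of its UMIs. One, in R848 set 1, had 242 Ighe, 44 Ighg2c and 0 Ighg2b UMIs, and the other, in IL-4+R848 set 2, had 273 Ighe and 409 Ighg2c UMIs. In sums with no such cell Ighe totalled 2 UMIs in IL-4+R848 set 1, 4 in R848 set 2, and 30 and 9 in the R848 and IL-4+R848 cells of set 3.

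Apoe, the apolipoprotein E gene, was at 583, 803 and 419 CPM in R848 members of sets 1 to 3 and at 365, 15.5 and 48.3 CPM in IL-4+R848 members. All R848 values lay above all IL-4+R848 values, but edgeR gave an adjusted p of 0.997 (0.00166 to 1.00 over the alternatives), and the gene was named after its values were seen. The summed monocyte and macrophage markers also did not overlap, at 24.9 to 40.3 CPM in R848 and 18.4 to 22.7 CPM in IL-4+R848 members, and their part in the Apoe values was not tested. Its UMIs were concentrated in few cells: 9.02, 7.69 and 7.87% of members had at least 10 in R848 sets 1 to 3, and 13.2, 0 and 1.67% in IL-4+R848 sets. The highest cells had 509, 823 and 584 UMIs under R848 and 152, 6 and 32 under IL-4+R848.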
